A study of Mus musculus with 19 samples.

Results

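The genes described here are 8 genes of cholesterol synthesis: *Hmgcs1*, *Idi1*, *Fdps*, *Fdft1*, *Sqle*, *Lss* and *Dhcr7*, which encode enzymes, and *Srebf2*, which encodes the transcription factor SREBP2. They were taken by symbol as genes of 1 pathway, in a choice made with earlier results of these data known, and all 8 were found among the 55573 genes of the mouse tissue table, the 55487 genes of the brown adipose table and the 13756 genes of the inguinal white adipose table. All 8 had a mean of at least 1 FPKM, a transcript level scaled to exon length and library size, in each table.

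RNA-seq was available for 7 tissues of wild-type C57BL/6J mice, with 1 library each from heart, tibialis anterior (TA) muscle, brain, liver, white adipose tissue (WAT), brown adipose tissue (BAT) and small intestine. The other 12 libraries were from male mice, 5 months of age, on a chow diet and kept at 8 °C for 1 week, with 3 wild-type (WT) and 3 MCK-Musclin libraries each from inguinal white adipose tissue (iWAT) and from BAT. MCK-Musclin mice carry the full Musclin coding sequence (gene symbol *Ostn*) under the promoter of muscle creatine kinase (MCK), which drives expression in skeletal muscle. The study made 5 founder lines on this design, and the labels used here do not say which of them gave the libraries. All 12 adipose samples were from cold-housed mice, so no effect of cold could be tested. The question for the adipose libraries was which transcripts differ between MCK-Musclin and WT mice in each depot. The labels do not tie libraries to animals, and the study states that its RNA-seq used RNA from independent animals within each genotype.

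Cholesterol is built from acetyl-CoA through mevalonate and isoprenoid units, which are joined to squalene, closed into the sterol ring system and then trimmed to cholesterol. SREBP2 is held in the endoplasmic reticulum when sterols are plentiful, and when sterols fall it is carried to the Golgi by SCAP and cut, so that its active end enters the nucleus and raises the transcription of these enzymes and of genes for sterol uptake. Liver and intestine are known for high rates of sterol synthesis, brain makes its own cholesterol, and adipocytes hold a large store of free cholesterol around their lipid droplets.

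Promoter sequence is shown because SREBP2 acts through short sterol regulatory elements, often next to CCAAT boxes bound by NF-Y. Of the 8 genes, *Hmgcs1*, *Idi1*, *Lss*, *Dhcr7* and *Srebf2* matched the RefSeq promoter set for GRCm38.p6, and *Fdft1*, *Fdps* and *Sqle* did not. The 250 bases before each annotated start were searched on both strands for TCACCCCAC, a textbook form of the sterol regulatory element, for its first 8 letters TCACCCCA, a search added after the *Srebf2* window had been seen, and for the CCAAT box. Of 32851 promoter windows, 0.496% held the longer element, 1.34% held the shorter form that overlaps it, 33.8% held a CCAAT box, and 0.377% held both the shorter form and a CCAAT box. *Hmgcs1* held the longer element from 137 to 129 bases before its start, *Srebf2* held the shorter form from 162 to 155 bases before its start, and the other 3 matched genes held neither. A CCAAT box lay in the windows of all 5 matched genes, with 3 in *Hmgcs1* and, for *Dhcr7*, in 1 of its 3 entries. Among 12 matched promoters of 14 other cholesterol synthesis enzymes, 0 held the shorter form and 11 held a CCAAT box. The 3 sequences below are on the plus strand of GRCm38, 5′ to 3′, cut off before the first annotated exon, with the matched elements in capitals, and they show a promoter with the longer element, one with the shorter form and one with a CCAAT box alone. The *Hmgcs1* sequence is chr13:119690101-119690350, the *Srebf2* sequence is chr15:82147019-82147180 and the *Lss* sequence is chr10:76531355-76531587. A match is a description of letters and not a measured binding site.
Hmgcs1: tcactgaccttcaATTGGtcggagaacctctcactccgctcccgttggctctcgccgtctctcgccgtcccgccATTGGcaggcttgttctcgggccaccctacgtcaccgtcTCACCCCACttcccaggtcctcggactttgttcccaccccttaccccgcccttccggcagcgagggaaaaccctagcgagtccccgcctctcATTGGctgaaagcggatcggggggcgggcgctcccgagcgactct
Srebf2: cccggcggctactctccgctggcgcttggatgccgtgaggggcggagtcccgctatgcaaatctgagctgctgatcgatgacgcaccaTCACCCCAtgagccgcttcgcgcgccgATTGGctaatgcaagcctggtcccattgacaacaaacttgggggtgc
Lss: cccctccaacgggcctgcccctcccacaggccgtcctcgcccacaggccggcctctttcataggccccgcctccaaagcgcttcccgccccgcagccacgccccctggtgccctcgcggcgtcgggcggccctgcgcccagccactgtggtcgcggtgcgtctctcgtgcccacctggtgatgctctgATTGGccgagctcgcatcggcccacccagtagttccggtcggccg

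Some libraries and marker genes bear on what follows. The FPKM values of a library added up to between 364710 and 384104 in iWAT, 676362 and 720852 in cold BAT and 393682 and 711437 over the 7 tissues, and the number of reads behind each value is unknown. The 4 defining markers of each tissue were highest in the library of that name for 6 tissues, and for BAT 3 of 4 were, *Dio2* being at 6.82 FPKM in BAT and 10.9 in brain. *Ostn* was at 37.9, 31.6 and 30.3 FPKM in the 3 MCK-Musclin BAT libraries and at 0 in the 3 WT ones. In iWAT it was at 0, 0 and 0.225 FPKM in WT and at 0, 5.17 and 4.21 in MCK-Musclin, so that the library labelled MCK-Musclin 1 showed no *Ostn* signal in this depot. In iWAT, summed FPKM was higher in MCK-Musclin than WT for 6 B cell markers (286 to 385 against 130 to 254, 6 of 6 called higher), 6 T cell markers (155 to 199 against 79.9 to 128, 4 called) and 5 lymph node stroma markers (347 to 564 against 150 to 327, 5 called), beside 5.04% of all genes called higher. The 8 adipocyte markers were all lower with 0 called (12810 to 14147 against 14512 to 15846 FPKM), the 6 brown and beige fat markers were all lower with 4 called (104 to 550 against 488 to 867), and 1 of 6 macrophage markers was called higher (533 to 741 against 498 to 538). Of all iWAT genes, 38.7% were lower and 0.902% were called lower. The 7 muscle markers in iWAT ran from 7.35 to 2346 FPKM in WT and from 5.54 to 94.96 in MCK-Musclin, with 0 called and *Ckm* at 0 in WT library 1 and in the library labelled MCK-Musclin 1, while in BAT 6 of 7 were called higher (467 to 938 against 286 to 427). In BAT 0 of the 8 adipocyte markers were called (8052 to 9021 FPKM against 8659 to 9376). Of all BAT genes, 1.85% were called higher and 2.15% were called lower. In bulk tissue, fewer cells of a type and less RNA per cell cannot be told apart.

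Across the 7 tissues, the transcripts of the synthesis enzymes were most abundant in liver or small intestine, except *Fdft1*, which was highest in BAT. They were scarcest in heart and TA muscle, except *Fdps*, which was a little higher in TA muscle than in BAT. Liver and small intestine were the 2 highest tissues for *Idi1*, *Fdps*, *Sqle*, *Lss* and *Dhcr7*, 5 of the 8 genes, against 7.30% of 14692 genes with a mean of at least 1 FPKM. Heart and TA muscle were both below the other 5 tissues for 7 of the 8, against 22.1% of those genes. With 1 library per tissue there was no replicate check and no test.

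Among the mevalonate and isoprenoid steps, *Hmgcs1*, the synthase that makes HMG-CoA (chr13:119690379-119708260, plus strand, GRCm38 as for all positions here), was at 79.1 FPKM in small intestine, 72.6 in brain, 71.5 in liver, 36.9 in WAT, 29.3 in BAT, 8.87 in heart and 7.62 in TA muscle. Small intestine and brain differed by 1.09-fold, and the order of the 3 highest tissues turned under other scalings of the libraries. *Idi1*, which interconverts the 2 isoprenoid building blocks (chr13:8885501-8892451, plus strand), was at 77.2 FPKM in liver, 34.8 in small intestine, 8.62 in brain, 8.11 in WAT, 3.68 in BAT, 1.57 in TA muscle and 1.03 in heart. *Fdps*, which joins these units to farnesyl diphosphate (chr3:89093588-89101959, minus strand), was at 243 FPKM in liver, 72.4 in small intestine, 27.1 in brain, 12.2 in WAT, 9.49 in TA muscle, 9.31 in BAT and 3.27 in heart. *Fdps* thus stood 3.35-fold above the next tissue in liver, the widest such gap of the 8 genes, and it was the only one in which TA muscle was not below BAT.

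Among the squalene and sterol steps, *Fdft1*, squalene synthase (chr14:63145150-63179578, minus strand), was at 77.0 FPKM in BAT, 70.2 in liver, 48.9 in small intestine, 37.3 in both brain and WAT, 35.1 in TA muscle and 16.4 in heart. Its highest and lowest tissues differed by 4.69-fold, the smallest ratio of the 8, and the order of BAT and liver turned when FPKM was rescaled to TPM, which gives every library the same total. *Fdft1* shares exon bases with *Ctsb* on the other strand, and the alignment was unstranded. *Ctsb* was at 244 FPKM in WAT, 174 in BAT, 77.8 in small intestine, 72.8 in liver, 65.6 in brain, 42.6 in heart and 31.3 in TA muscle. Its part in the *Fdft1* values was not tested. *Sqle*, squalene epoxidase (chr15:59315077-59331192, plus strand), was at 28.1 FPKM in small intestine, 19.1 in liver, 11.1 in brain, 2.59 in WAT, 1.34 in BAT and 0.0127 in TA muscle, and was listed at 0 in heart. *Lss*, lanosterol synthase (chr10:76531588-76557138, plus strand), was at 10.7 FPKM in liver, 9.27 in small intestine, 3.92 in brain, 2.14 in BAT, 1.96 in WAT, 0.362 in TA muscle and 0.268 in heart. *Dhcr7*, which makes the last step to cholesterol (chr7:143823145-143848410, plus strand), was at 19.4 FPKM in liver, 12.3 in small intestine, 5.40 in brain, 2.43 in BAT, 1.29 in WAT, 1.25 in TA muscle and 1.15 in heart. For *Sqle*, *Lss* and *Dhcr7* both adipose tissues were therefore below brain, while for *Fdft1* BAT was above it.

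*Srebf2* (chr15:82147181-82205379, plus strand) followed another order from most of its target genes. It was at 28.5 FPKM in small intestine, 25.5 in brain, 11.7 in WAT, 7.50 in liver, 4.68 in BAT, 3.17 in heart and 2.53 in TA muscle. Liver, where 4 of the 7 enzymes were highest, was only the fourth tissue for *Srebf2*, and small intestine and brain differed by 1.12-fold, in an order that turned under 2 scalings.

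**Figure D1:**
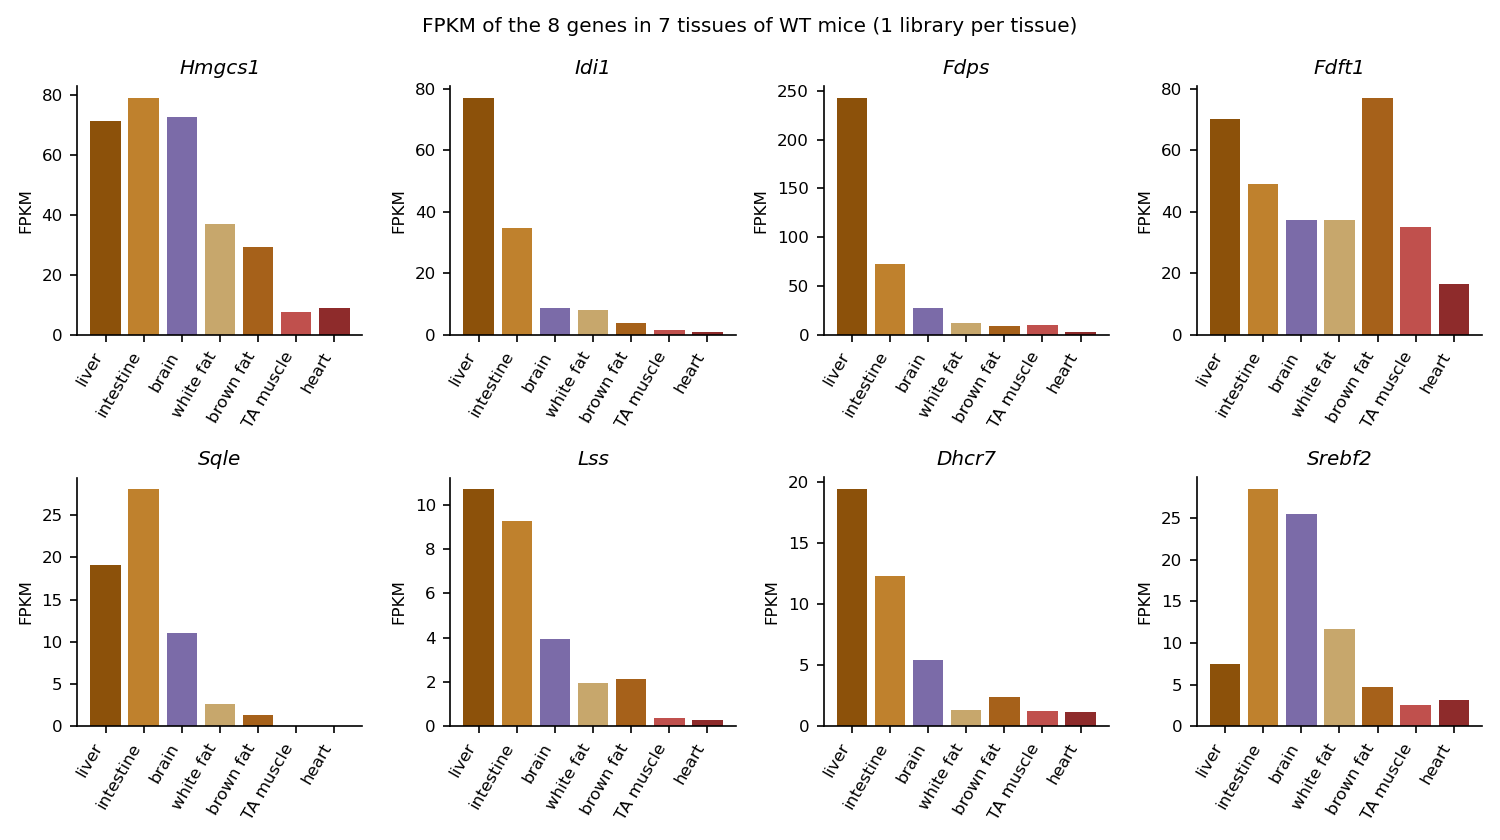
FPKM of each of the 8 genes in the 7 tissues, 1 bar per library, each panel with its own axis from 0. Liver or small intestine holds the tallest bar for 7 genes, BAT for *Fdft1* at 77.0 FPKM, and heart and TA muscle hold the shortest bars for 7 genes.

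Counted over the 8 genes, 4 were highest in liver (8.52% of all genes), 3 in small intestine (27.9%) and 1 in BAT (5.66%), and 6 were lowest in heart (21.5%) and 2 in TA muscle (35.2%). The summed FPKM of the 8 was 518 in liver, 313 in small intestine, 191 in brain, 130 in BAT, 112 in WAT, 57.9 in TA muscle and 34.2 in heart. These counts moved with the scaling. Rescaled to TPM, 5 genes were highest in liver, 2 in brain (27.5% of all genes by FPKM) and 1 in small intestine, and with a median-ratio scaling 7 were highest in liver, 1 in small intestine, and the muscles were both lowest for 5. A scaling moves all genes of a library together. The shares of all genes given here are for FPKM, so the counts under other scalings have no matching share beside them. The correlation of log2(FPKM + 1) between 2 of the genes over the 7 tissues ran from 0.22 to 0.97 over 28 pairs, with a median of 0.85. *Fdft1* and *Srebf2* gave the lowest value with each other, and their medians with the other genes were 0.60 and 0.61. All pairs share the same 7 libraries and their scaling, so these values describe them only. Within a tissue, FPKM compares levels per length between genes: *Fdft1* was the most abundant of the 8 in heart, TA muscle, WAT and BAT, *Hmgcs1* in brain and small intestine, and *Fdps* in liver.

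The 14 other enzymes of cholesterol synthesis were also most often highest in liver. Of these, 11 were highest in liver and 3, *Mvk*, *Mvd* and *Lbr*, in small intestine, and the 2 muscles were both lowest for 10. *Cyp51*, a sterol demethylase, was at 71.5 FPKM in liver, 47.9 in small intestine, 20.1 in brain, 2.96 in heart and 0.983 in TA muscle. *Msmo1*, a sterol C4-methyl oxidase, was at 72.0 FPKM in liver, 25.3 in small intestine, 23.4 in brain, 2.06 in heart and 0.742 in TA muscle. Of 7 SREBP2 targets and carriers for sterol uptake, 4 were highest in liver and 2 in small intestine. *Npc1l1*, the intestinal sterol transporter, was at 38.2 FPKM in small intestine. The 8 genes that process and control SREBPs were spread over liver (3), WAT (3), brain (1) and TA muscle (1), and *Insig1*, which retains SCAP in the endoplasmic reticulum, was at 117 FPKM in liver.

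**Figure D2:**
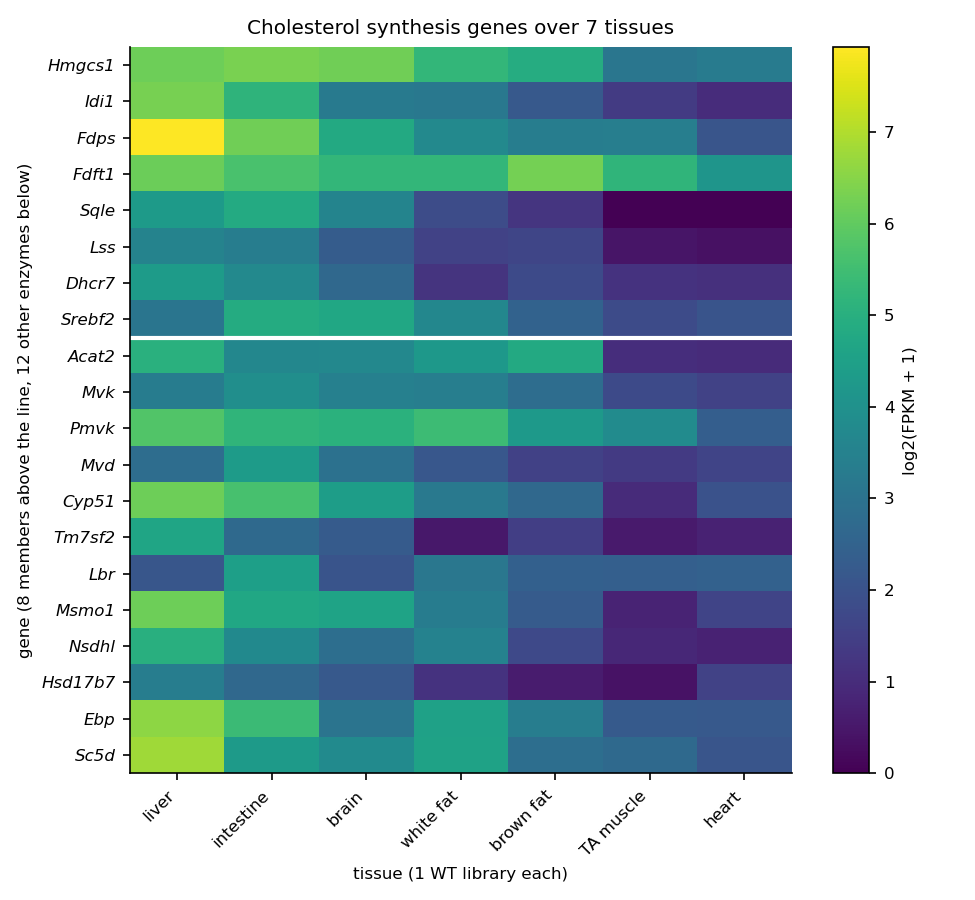
log2(FPKM + 1) of the 8 genes and of 12 of the 14 other cholesterol synthesis enzymes in the 7 tissues, 1 library each, with lighter cells for higher levels and a line between the 2 sets. The heart and TA muscle columns are darkest for most genes and the liver column is lightest for most, with *Cyp51* at 71.5 FPKM in liver against 2.96 in heart.

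The genes whose pattern over the 7 tissues was closest to the mean z-scored log2(FPKM + 1) of the 8, of 14684 genes compared, were *Gprin3* (r = 0.982), *Sepsecs* (0.976), *Nanp* (0.975), *Nol9* (0.974) and *Abhd6* (0.974). Of the other pathway genes, *Cyp51* stood at rank 14 (r = 0.965), *Stard4*, a sterol carrier, at rank 41 (0.948) and *Msmo1* at rank 46 (0.945). Each value rests on the same 7 libraries and is a description.

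In the cold-housed adipose depots the WT levels were of the same order. The depots came as separate tables and were extracted with different reagents, so their levels are set side by side without a test. *Fdps* was at 24.8, 12.2 and 9.48 FPKM in WT iWAT and at 35.5, 32.6 and 30.8 in WT BAT, and *Dhcr7* was at 2.70, 2.23 and 1.25 in iWAT and at 4.32, 3.37 and 2.97 in BAT. In FPKM these ranges did not overlap, and BAT was the higher depot for both. The FPKM totals were 364710 to 368500 in WT iWAT and 709981 to 720317 in WT BAT, so the depot order depends on the scaling. As a share of all FPKM in a library, the 8 genes together held 0.0298% to 0.0399% in WT iWAT and 0.0179% to 0.0218% in WT BAT. *Srebf2* was at 8.09, 7.87 and 6.67 FPKM in WT iWAT and at 6.33, 4.62 and 5.64 in WT BAT. In FPKM it alone of the 8 was higher in iWAT without overlap. For the other 5 genes the FPKM ranges overlapped. The share of all genes with ranges apart between depots was not computed, and single genes were not rescaled. These counts therefore describe the FPKM values only. *Sqle* was at 5.35, 2.02 and 2.12 FPKM in WT iWAT and at 8.00, 7.47 and 5.32 in WT BAT. *Lss* was at 4.95, 1.89 and 2.21 in WT iWAT and at 5.74, 7.02 and 4.79 in WT BAT. For *Sqle* and *Lss* the overlap came from WT iWAT library 1 alone. The mean of WT cold BAT was also set against the BAT library of the tissue series. The label of that library gives no housing temperature. By the study's methods, its mice came from a colony kept at room temperature outside cold assays. The cold mean was 5.19 times as high for *Sqle*, 3.54 for *Fdps*, 3.03 for *Idi1*, 2.73 for *Lss*, 1.47 for *Dhcr7*, 1.18 for *Hmgcs1* and *Srebf2*, and 0.588 for *Fdft1*. Against the WAT library, the mean of WT cold iWAT was between 0.644 times as high, for *Srebf2*, and 1.59 times, for *Dhcr7*. Table and, by the study's methods, temperature differ together in these ratios and cannot be told apart. The title of the WAT library names no depot, so its depot may differ from iWAT as well. Age and diet may differ too, as neither is given here for the tissue-series mice.

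Near-identical processed copies limit *Fdps* and *Idi1* in BAT. The copies *Gm5873* and *Gm3571* held 18.0% to 24.6% of the FPKM of *Fdps* and these copies in the cold BAT libraries, and at most 1.88% in the 7 tissues. The copies of *Idi1*, *Gm13502* and *Gm35570*, held 18.6% to 24.3% in cold BAT and 6.70% to 27.3% in the tissues. The iWAT table used here lists 0 of these 4 copies, and with 13756 genes it is a shorter table, so how reads shared with the copies were divided in iWAT is not known.

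In iWAT, *Fdft1* was the only one of the 8 genes called different between MCK-Musclin and WT, and it was lower in MCK-Musclin. The cutoffs were those of the study, an unadjusted p under 0.05 and a log2 change over 0.5. They were applied here to limma on log2(FPKM + 1), while the study used DESeq2. The calls and their shares are therefore not those of the study. *Fdft1* was at 51.9, 35.9 and 43.1 FPKM in WT (43.6 ± 8.01, SD, n = 3) and 22.2, 31.2 and 30.9 in MCK-Musclin (28.1 ± 5.15, n = 3). The MCK-Musclin values all lay under the WT values. The log2(FPKM + 1) change was -0.62 with a standard error of 0.18 and a 95% interval of -1.04 to -0.20 (limma, adjusted p = 0.182 over 12197 genes). Its unadjusted p was under 0.05, as it was for 16.5% of all genes. The call is thus 1 of 8 genes lower, against 0.902% of all genes called lower and 5.04% called higher, and it did not pass the adjustment over all genes. The share of higher among all iWAT calls, 84.8%, was 75.1% after rescaling to TPM, 70.0% with median-ratio scaling, 70.2% with quantile normalization and 98.9% after centring on adipocyte markers. *Fdft1* was lower under each of these.

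The *Fdft1* difference moved with single libraries. The log2 change was -0.49 without WT library 1, the highest. It was -0.46 without the library labelled MCK-Musclin 1, the lowest of the 6 and the only MCK-Musclin iWAT library with *Ostn* at 0. Neither was called. With each library centred on its adipocyte markers it was -0.39 and was not called. *Fdft1* on the minus strand also shares 774 exon bases with *Ctsb*, a lysosomal protease gene on the plus strand, and the alignment was unstranded, so reads of the shared bases could not be assigned by strand. *Ctsb* was at 190, 202 and 164 FPKM in WT iWAT and at 205, 191 and 189 in MCK-Musclin, with a log2 change of 0.08 (limma, adjusted p = 0.761). The study's source data list *Fdft1*, with its iWAT values, in gene sets chosen on these libraries, so its difference here is not independent evidence. The part of adipocyte content and of the immune markers above in this result was not tested.

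*Srebf2* was the other gene whose iWAT groups did not overlap, at 8.09, 7.87 and 6.67 FPKM in WT (7.55 ± 0.763, n = 3) and 10.8, 9.39 and 8.14 in MCK-Musclin (9.44 ± 1.32, n = 3). Its levels were higher in MCK-Musclin, opposite in direction to *Fdft1*. The log2 change was 0.28 with a standard error of 0.13, and a 95% interval of -0.02 to 0.59 (limma, adjusted p = 0.328), and it was not called. Of all genes, 17.9% were higher without overlap and 5.44% lower without overlap, so 1 gene in each direction among 8 is read against those shares. Centred on the adipocyte markers the log2 change of *Srebf2* was 0.52 and was called, a scaling that moved the median change of all genes in iWAT from 0.061 to 0.29.

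The mevalonate and isoprenoid enzymes did not differ between genotypes in iWAT beyond their spread. *Hmgcs1* was at 36.2, 40.5 and 36.7 FPKM in WT and at 38.6, 34.0 and 30.4 in MCK-Musclin, a log2 change of -0.14 with a 95% interval of -0.40 to 0.12. *Idi1* was at 12.8, 8.54 and 8.31 FPKM in WT and at 10.1, 8.32 and 7.45 in MCK-Musclin, a log2 change of -0.16 with an interval of -0.59 to 0.26. *Fdps* was at 24.8, 12.2 and 9.48 FPKM in WT and at 17.9, 13.0 and 9.72 in MCK-Musclin, a log2 change of -0.11 with an interval of -0.93 to 0.70. The groups overlapped for all 3, and the adjusted p-values lay between 0.572 and 0.901 (limma).

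The later sterol enzymes overlapped as well. *Sqle* was at 5.35, 2.02 and 2.12 FPKM in WT and at 2.12, 1.74 and 2.02 in MCK-Musclin, a log2 change of -0.41 with a 95% interval of -1.07 to 0.25. *Lss* was at 4.95, 1.89 and 2.21 FPKM in WT and at 2.25, 3.62 and 1.64 in MCK-Musclin, a log2 change of -0.16 with an interval of -0.90 to 0.57. *Dhcr7* was at 2.70, 2.23 and 1.25 FPKM in WT and at 1.91, 2.99 and 2.57 in MCK-Musclin, a log2 change of 0.21 with an interval of -0.29 to 0.71. For *Sqle*, WT library 1 stood above all others, and without it the log2 change was -0.056. Over the 8 genes, 6 were lower and 2 higher in MCK-Musclin, with a median log2 change of -0.15, while 38.7% of all genes were lower and the median of all genes was 0.061. Centring on adipocyte markers turned the direction of *Hmgcs1*, *Idi1*, *Fdps* and *Lss*.

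WT library 1 stood above the other iWAT libraries for these genes. It was the highest of the 6 for 5 of the 8, and its summed FPKM of the 8 was 147 against 92.9 to 111 in the others. The summed FPKM of the 14 other synthesis enzymes was 215 in it and 147 to 170 in the rest. The lipogenic genes *Acly*, at 417 FPKM against 52.2 to 173, and *Fasn*, at 546 against 118 to 319, were also highest there.

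**Figure D3:**
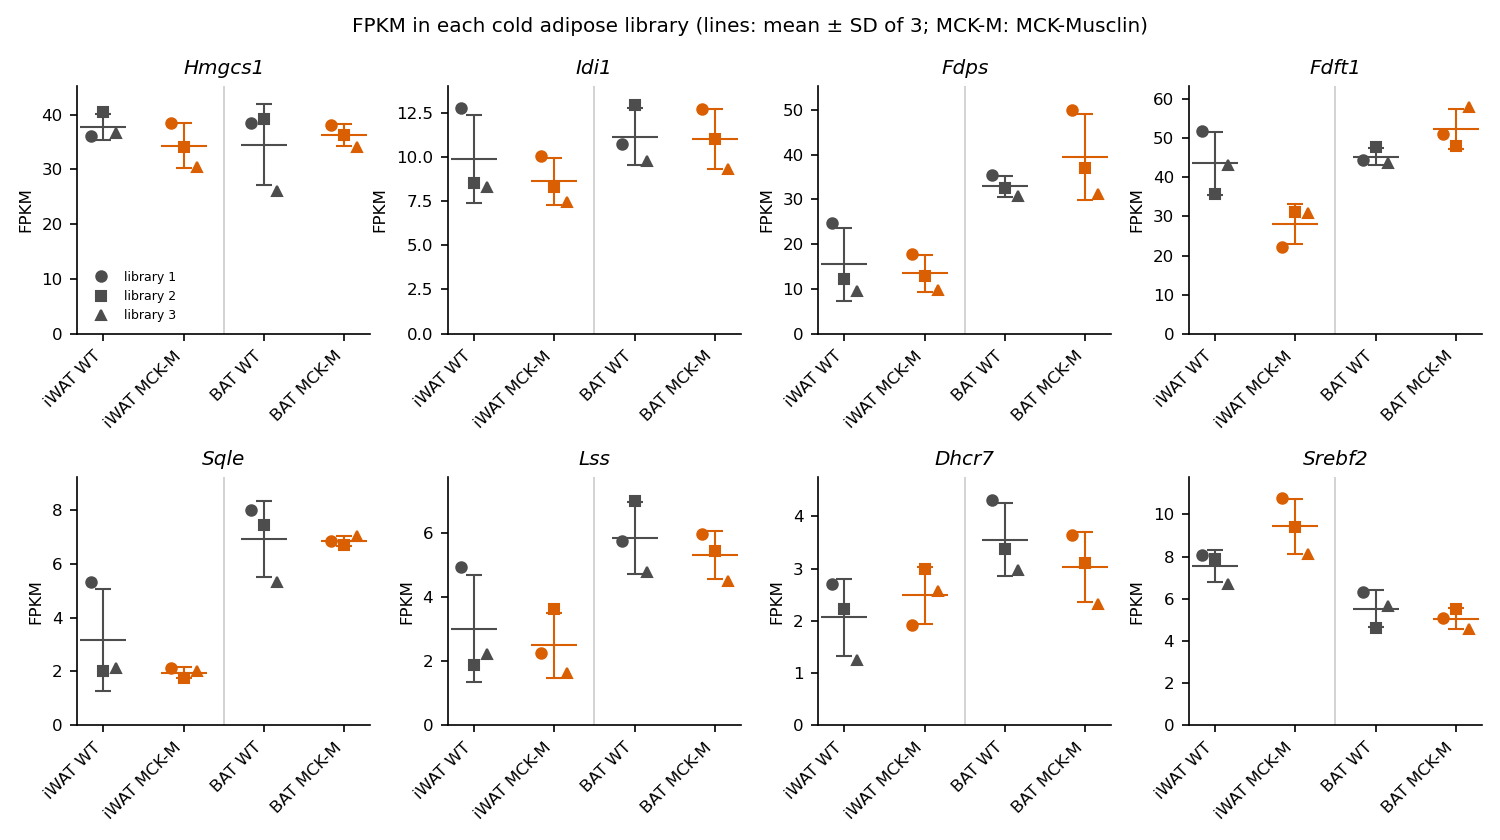
FPKM of each of the 8 genes in every cold adipose library, WT and MCK-Musclin side by side for iWAT and BAT, with the mean and SD of the 3 libraries of a group. The iWAT groups are apart for *Fdft1* (22.2 to 31.2 against 35.9 to 51.9) and *Srebf2*, and the BAT groups for *Fdft1* only.

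In BAT, 0 of the 8 genes were called, against 2.15% of 10893 genes called lower and 1.85% called higher. The cutoffs were those of the study for that depot, an unadjusted p under 0.05 and a log2 change over 0.3, applied to limma. The number of the 8 with an unadjusted p under 0.05 was 0 as well (limma), against 4.89% of all genes. Among all BAT calls 46.3% were higher, 57.3% with a log2 cutoff of 0.5 and 82.2% after centring on adipocyte markers. *Fdft1* was at 44.6, 47.8 and 43.6 FPKM in WT (45.3 ± 2.18, n = 3) and at 51.2, 48.1 and 58.0 in MCK-Musclin (52.4 ± 5.08, n = 3), higher in every MCK-Musclin library than in every WT library, as 4.38% of genes were. Its log2 change was 0.20 with a standard error of 0.098, and a 95% interval of -0.03 to 0.43 (limma, adjusted p = 0.968). *Ctsb* was at 192, 193 and 184 FPKM in WT BAT and at 205, 178 and 183 in MCK-Musclin, a log2 change of -0.01.

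The other 7 genes overlapped between genotypes in BAT. *Hmgcs1* was at 38.4, 39.2 and 26.1 FPKM in WT and at 38.2, 36.3 and 34.2 in MCK-Musclin, a log2 change of 0.09 with a 95% interval of -0.28 to 0.46. *Idi1* was at 10.8, 12.9 and 9.77 FPKM in WT and at 12.7, 11.0 and 9.29 in MCK-Musclin, a log2 change of -0.02 with an interval of -0.36 to 0.33. *Fdps* was at 35.5, 32.6 and 30.8 FPKM in WT and at 50.1, 37.0 and 31.3 in MCK-Musclin, a log2 change of 0.23 with an interval of -0.16 to 0.62. The *Fdps* difference was 0.047 without MCK-Musclin library 1, the highest of its group. Leaving out the lowest, library 3, it was 0.38 and was called. *Sqle* was at 8.00, 7.47 and 5.32 FPKM in WT and at 6.84, 6.70 and 7.04 in MCK-Musclin, a log2 change of 0.0036 with an interval of -0.34 to 0.35. *Lss* was at 5.74, 7.02 and 4.79 FPKM in WT and at 5.98, 5.44 and 4.51 in MCK-Musclin, a log2 change of -0.11 with an interval of -0.48 to 0.25. *Dhcr7* was at 4.32, 3.37 and 2.97 FPKM in WT and at 3.65, 3.10 and 2.32 in MCK-Musclin, a log2 change of -0.18 with an interval of -0.58 to 0.22. *Srebf2* was at 6.33, 4.62 and 5.64 FPKM in WT and at 5.07, 5.53 and 4.55 in MCK-Musclin, a log2 change of -0.11 with an interval of -0.42 to 0.21. Of the 8 genes 4 were lower and 4 higher, with a median log2 change of -0.0074, and 52.3% of all genes were lower.

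The genotype differences in the depots were compared directly for *Fdft1*, which was lower in iWAT and higher in BAT. The difference of the log2 changes, iWAT minus BAT, was -0.82 with a standard error of 0.22, and a 95% interval of -1.29 to -0.35 (limma, adjusted p = 0.402 over 9757 genes). It was 1 of the 8 with an unadjusted p under 0.05, against 10.1% of all genes in either direction and 3.02% in the lower direction, and it did not pass the adjustment. Of all genes with an unadjusted p under 0.05 in this contrast, 70.0% were in the higher direction, 44.2% after rescaling to TPM, 41.0% with median-ratio scaling and 95.1% after centring. For *Srebf2* the difference was 0.39 with an interval of -0.02 to 0.80 (limma, adjusted p = 0.510). For the other 6 genes the differences lay between -0.41 and 0.39, with adjusted p-values of 0.685 to 0.982 (limma).

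**Figure D4:**
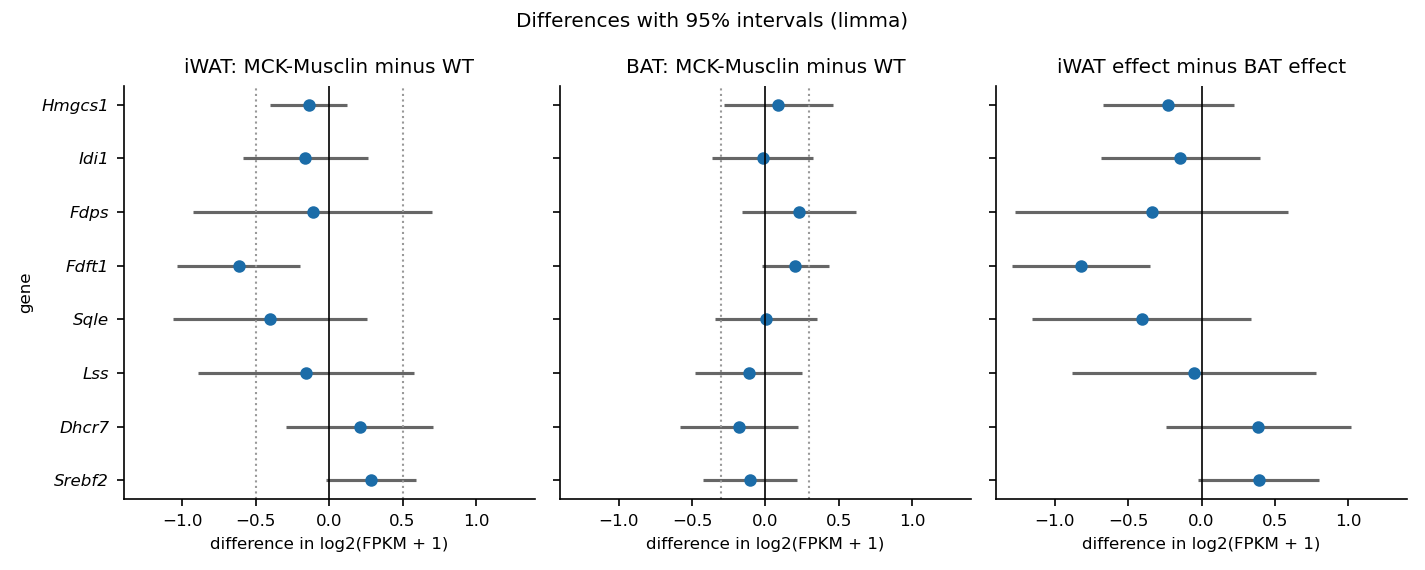
The log2(FPKM + 1) difference between MCK-Musclin and WT for each of the 8 genes in iWAT and in BAT, and the iWAT difference minus the BAT difference, as points with 95% intervals from 3 libraries per group. Dotted lines mark the log2 cutoffs of 0.5 and 0.3, and only the *Fdft1* intervals of iWAT (-1.04 to -0.20) and of the depot difference (-1.29 to -0.35) lie wholly on one side of 0.

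The 14 other synthesis enzymes gave 0 calls in iWAT, with 8 lower, 6 higher and a median log2 change of -0.03. *Lbr* and *Tm7sf2*, which both encode sterol C14-reductases, had an unadjusted p under 0.05 with changes under the cutoff. These are 2 of 14, and 16.5% of all iWAT genes had an unadjusted p under 0.05. *Lbr*, also the lamin B receptor of the nuclear envelope, was at 11.3, 9.64 and 10.1 FPKM in WT and at 13.0, 16.3 and 14.3 in MCK-Musclin, a log2 change of 0.45 (limma, adjusted p = 0.158). The change of *Tm7sf2* was 0.33 (limma, adjusted p = 0.285). In BAT 9 of the 14 were lower and 5 higher, with a median of -0.04. *Msmo1* was called lower there at -0.36 (limma, adjusted p = 0.968), 1 of 14 against 2.15% of all BAT genes.

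Calls were few among the genes around the pathway, as they were among all genes (0.902% lower and 5.04% higher in iWAT, 2.15% and 1.85% in BAT), and lists of this size would hold few calls at those shares. Of the 8 genes of SREBP processing and control, 0 were called in iWAT and 0 in BAT, with *Srebf1*, the SREBP of fatty acid synthesis, at -0.40 (limma, adjusted p = 0.281) and *Insig1* at -0.46 (adjusted p = 0.402) in iWAT. Of the sterol uptake genes 5 were tested in each depot, and *Npc1*, which exports cholesterol from lysosomes, was called higher in BAT at 0.51 (limma, adjusted p = 0.929). Its FPKM was 2.57, 2.34 and 2.45 in WT and 4.34, 3.52 and 3.92 in MCK-Musclin, without overlap. Of the 11 sterol storage, efflux and breakdown genes tested in iWAT, 9 were higher and 0 were called, with *Nceh1*, which hydrolyses cholesterol esters, at 0.48, *Soat1*, which forms them, at 0.38 and *Abca1*, the cholesterol efflux pump, at -0.39. In BAT 0 of 10 were called. Of the 9 genes of the non-sterol branches 0 were called in either depot, with *Coq2*, of ubiquinone synthesis, at 0.43 (limma, adjusted p = 0.148) in iWAT.

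Fatty acid synthesis is the neighbouring SREBP pathway, and its median in iWAT was below that of the sterol genes, a difference that was not tested. Of its 11 genes all 11 were lower in MCK-Musclin iWAT and 1 was called, *Elovl6*, a fatty acid elongase, at -1.53 (limma, adjusted p = 0.287). Of all genes, 38.7% were lower and 0.902% were called lower. The median log2 change was -0.58 beside -0.15 for the 8 genes and 0.061 for all genes. Of the 11, 0 were lower without overlap of the groups, beside 5.44% of all genes, a share at which a list of this size would hold few. Their summed FPKM was highest in WT library 1, at 9417 against 4841 to 6926 in the other iWAT libraries. In BAT 5 were lower, 6 higher and 0 called, with a median of 0.04, beside 52.3% of all genes lower.

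Within their groups, the 8 genes moved with libraries in a way that can be described by each library's mean deviation from its group. In iWAT this was 0.38 on the log2 scale for WT library 1, and in the other 11 cold libraries it lay between -0.24 and 0.12. The genes closest to the mean of the 8 in these deviations, of 9749 genes compared over the 12 libraries, were *Uba1* (r = 0.918), *Sorl1* (0.917), *Utp14b* (0.914), *Ddx46* (0.914), *Snrnp200* (0.912), *Kpnb1* (0.911), *Sc5d* (0.908), *Ap1b1* (0.902), *Ddx39* (0.901) and *Acsl3* (0.898). *Sc5d*, a sterol desaturase of the same pathway, is the only synthesis enzyme among these 10, and *Cyp51* stood at rank 15 and *Mvd* at rank 35. All values share the 12 libraries, of which WT iWAT library 1 deviates farthest.

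**Figure D5:**
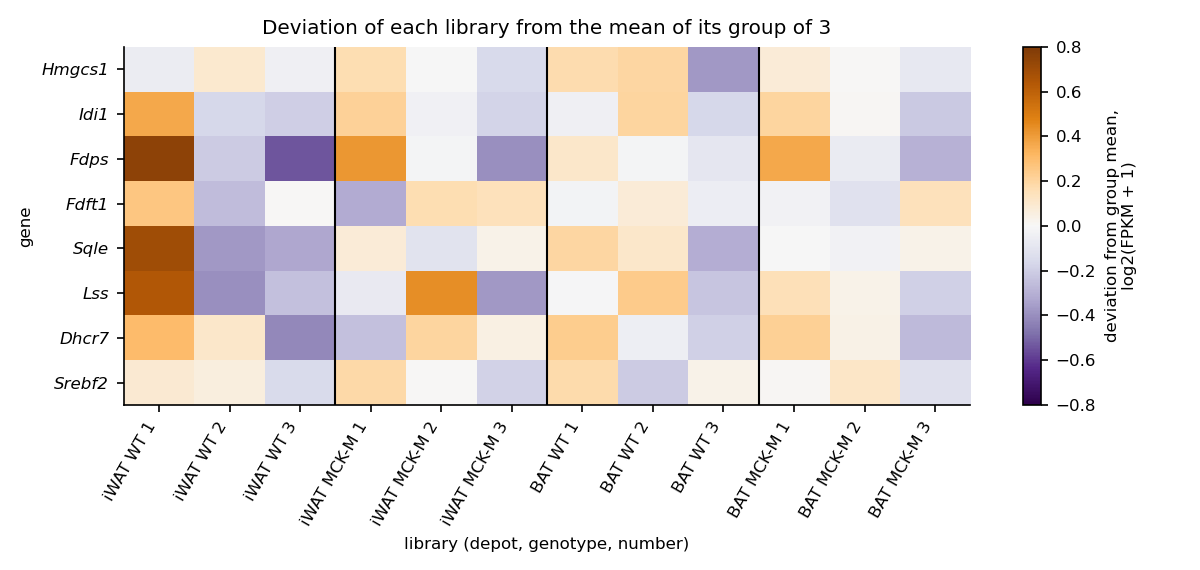
Deviation of each of the 8 genes from the mean of its group, on the log2(FPKM + 1) scale, as a colour from purple (below) to orange (above), in the 12 cold adipose libraries. WT iWAT library 1 lies above 0 for 7 of the 8 genes, with a mean of 0.38.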

How the data were processed

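Gene-level FPKM values deposited by the authors were used for 19 mouse RNA-seq libraries. The authors' methods describe read filtering with fastp and Bowtie2, unstranded alignment to GRCm38 (mm10) with HISAT2 2.1.0, and FPKM from StringTie, while the submitters' processing notes also list Cuffdiff, so the program behind the deposited FPKM is not certain. FPKM are not counts, so no count test was run, and the sequencing depth behind a value is unknown. The iWAT table also holds the authors' own means, fold changes, p-values and FDR for their comparison, which were not used. In each of the larger files, 287 lines repeated a gene with the same values and were used once, and 0 sample columns were left unmapped. Samples were grouped by the submitters' labels.

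Genes with a mean of at least 1 FPKM over the libraries of a comparison were tested on log2(FPKM + 1) with limma 3.58.1 in R 4.3.3 (empirical Bayes with a trend, two-sided), and p-values were adjusted by Benjamini-Hochberg over all genes tested. Fold changes on this scale understate the changes of low genes. A gene was called at an unadjusted p under 0.05 with an absolute log2 change over 0.5 in iWAT or 0.3 in BAT. These cutoffs are given in the study's figure legends. The study applied them to DESeq2 results, so the calls here are not its calls. The depot difference was the interaction contrast over 12 libraries, and the script was tested on simulated data. This contrast treated the iWAT and BAT libraries as independent, and the labels do not say whether both depots came from the same mice. The 8 genes and all lists were chosen with earlier results of these data known. Named genes were the 8, any gene of the lists, the 5 closest over 7 tissues and the 10 closest over the 12 libraries. Alternatives covered pseudocounts, filters, scalings, variance models, library weights, cutoffs, the replicate block and leaving out each library. Gene positions and overlaps were read from the GENCODE M21 annotation of GRCm38, near-identical copies were genes with at least 90% identity over 200 bases, and promoters were from RefSeq. Values of some single genes of the lists are not reported here.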

Additional observations from a re-analysis of the deposited data

Results flagged for a closer look

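The genotype difference of *Fdft1* differed in sign between the 2 depots. In iWAT it was called lower in MCK-Musclin, and in BAT its log2 change of 0.20 (95% interval -0.03 to 0.43, limma, adjusted p = 0.968) was not called, and the interaction of depot and genotype was -0.82 on the log2(FPKM + 1) scale (95% interval -1.29 to -0.35, limma, adjusted p = 0.402, unadjusted p under 0.05, as for 10.1% of all genes). In iWAT all 3 MCK-Musclin libraries lay below all 3 WT libraries, as for 5.44% of all genes, and in BAT all 3 lay above, as for 4.38%. The library labelled MCK-Musclin 1 in iWAT, with *Ostn* at 0, had the lowest *Fdft1* of the 6, at 22.2 FPKM. Its 7 muscle markers summed to 5.54 FPKM, against 82.8 and 94.96 in MCK-Musclin libraries 2 and 3 and 7.35 in WT library 1. Its 6 brown and beige fat markers summed to 550 FPKM, against 181 and 104 in MCK-Musclin libraries 2 and 3 and 488 to 867 in WT. Whether its *Ostn* value goes with its low muscle signal or with its brown and beige marker level was not tested. Beside this, adipocyte markers were lower and lymphocyte markers higher in MCK-Musclin iWAT, and their part in the difference was not tested.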

How the results depend on the processing

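Depth is unknown, each group has 3 libraries, and the 7 tissues have 1 each, so small differences could not be resolved. Values are on the log2(FPKM + 1) scale, MCK-Musclin minus WT. The call of *Fdft1* in iWAT was lost without WT library 1 (-0.49), without MCK-Musclin library 1 (-0.46) and with adipocyte centring (-0.39), so members called lower fell to 0 with centring and to 0 at an adjusted p, and ranged from 0 to 1 over leave-one-out fits. With centring 1 member, *Srebf2*, was called higher in iWAT, and 1 in the depot contrast (0.53).

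Genes called lower in iWAT (110) were 71 at a minimum of 5 FPKM, 201 as TPM, 184 with median-ratio scaling, 181 with quantile normalization, 23 with centring, 341 at a cutoff of 0.3, 420 without a cutoff and 0 at an adjusted p (2012 genes had an unadjusted p under 0.05). Genes called higher (615) were 2146 with centring, 1342 at a cutoff of 0.3, 1592 without a cutoff and 0 at an adjusted p. In BAT, genes lower (234) were 114 at 5 FPKM, 99 with centring, 73 at a cutoff of 0.5 and 0 at an adjusted p, and genes higher (202) were 102, 457, 98 and 1. In the depot contrast, genes lower (295) were 487 as TPM, 563 with median-ratio scaling and 81 with centring, and genes higher (687) were 386, 392 and 1556, and 1210 without a filter. Leaving out each library gave 92 to 211 genes lower and 530 to 844 higher in iWAT, 240 to 301 and 167 to 274 in BAT, and 221 to 371 and 511 to 783 in the contrast, with 0 to 1 members higher in BAT and in the contrast.

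Directions turned with centring in iWAT for *Hmgcs1* (0.092), *Idi1* (0.069), *Fdps* (0.12) and *Lss* (0.070), in BAT for *Idi1* (0.067), and in the contrast for *Idi1* (0.0018) and *Lss* (0.097). *Idi1* in BAT also turned as TPM (0.0066). Over leave-one-out fits the iWAT change of *Idi1* ran from -0.27 to 0.020, of *Fdps* from -0.38 to 0.26, of *Lss* from -0.38 to 0.16 and of *Dhcr7* from -0.00075 to 0.36. In BAT *Hmgcs1* ran from -0.10 to 0.19, *Idi1* from -0.12 to 0.088, *Sqle* from -0.15 to 0.10 and *Lss* from -0.23 to 0.0077. In the contrast *Idi1* ran from -0.25 to 0.038, *Fdps* from -0.61 to 0.036 and *Lss* from -0.27 to 0.27. The cause of these turns was not tested.

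The ratio of the highest tissue to the next turned as TPM for *Hmgcs1* (0.852), *Fdft1* (0.861) and *Srebf2* (0.874), without the 10 most abundant genes for *Hmgcs1* (0.812) and *Srebf2* (0.833), and with median-ratio scaling for *Hmgcs1* (0.993), *Fdft1* (0.857) and *Sqle* (0.815). With median-ratio scaling it moved to 3.99 for *Idi1*, 6.04 for *Fdps*, 2.08 for *Lss* and 2.83 for *Dhcr7*.

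The replicate numbers were not taken to pair the libraries: same-numbered deviations correlated at 0.23, 0.061 and 0.11 in iWAT and at -0.095, -0.0046 and 0.0094 in BAT. With the replicate block, 154 genes were lower and 620 higher in iWAT with 1 member lower, 246 and 214 in BAT, and 333 and 645 in the contrast, and no member's call changed.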
